A study of Mus musculus with 12 samples.

Results

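A set of 10 genes that mark regulatory T cells were followed in RNASeq of splenic T cells: Foxp3, Il2ra, Ctla4, Ikzf2, Tnfrsf18, Tnfrsf4, Tnfrsf9, Lrrc32, Nrp1 and Itgae. They were chosen by name, and all 10 were found among the 49315 gene identifiers of the count table. The libraries came from male mice that were 12 weeks old when the infusion began. They were either wild-type (WT) mice or mice that lack microRNA-214 in every cell (miR-214-/-). The paper lists C57BL/6 mice among those used, and for other experiments WT littermates of the miR-214-/- mice. Mice of each genotype received a sham or an angiotensin II (Ang II) infusion from a minipump over 14 days, the latter at 490 ng/kg each day, a standard model of hypertension. Each of the 4 groups (WT sham, WT Ang II, miR-214-/- sham and miR-214-/- Ang II) held 3 mice, with 1 library per mouse, so that p-values measure the spread between mice. Because the deletion was present in all tissues, a difference between genotypes cannot be assigned to the T cell itself. T cells were isolated as a whole, without sorting for regulatory T cells.

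Regulatory T cells are CD4+ T cells that hold other immune cells in check and prevent autoimmunity. Their identity is set by the transcription factor Foxp3, and Ikzf2 encodes Helios, a partner transcription factor found in many regulatory T cells of thymic origin. Il2ra encodes CD25, the high-affinity subunit of the interleukin-2 receptor, on whose signal regulatory T cells depend, and Ctla4 encodes the inhibitory receptor that takes CD80 and CD86 from antigen-presenting cells. Tnfrsf18 (GITR), Tnfrsf4 (OX40) and Tnfrsf9 (4-1BB) are costimulatory receptors of the TNF receptor family. Lrrc32 (GARP) holds latent TGF-β at the cell surface, Nrp1 is a co-receptor for semaphorins and VEGF, and Itgae (CD103) is the integrin chain that binds E-cadherin on epithelium. None of these genes except Foxp3 is close to exclusive to regulatory T cells, since activated T cells also use Il2ra, Ctla4 and the TNF receptors, and CD8+ T cells also use Itgae. Regulatory T cells are of interest in hypertension because they restrain vascular inflammation.

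A microRNA acts by pairing its seed (bases 2 to 8) with sites in the 3′ UTR of an mRNA, so the seeds of the deleted microRNA and the matches to them among the 10 genes are shown first. Both mature arms lie on chromosome 1 of GRCm38, miR-214-5p at chr1:162223397-162223418 and miR-214-3p at chr1:162223438-162223459, on the plus strand (sequences from RefSeq, GRCm38.p6). The seed is in capitals.
mmu-miR-214-3p: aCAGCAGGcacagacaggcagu
mmu-miR-214-5p: uGCCUGUCuacacuugcugugc
The site CCTGCTG of miR-214-3p or GACAGGC of miR-214-5p was searched on the transcript strand in every annotated 3′ UTR of the 10 genes. A match was found in Lrrc32 and in none of the other 9 genes. Lrrc32 held 1 site for miR-214-3p at chr7:98501472-98501478 and 2 sites for miR-214-5p at chr7:98500589-98500595 and chr7:98501013-98501019, all on the plus strand in its 3′ UTR of 2175 bases. The sites are shown with 10 bases on each side and the match in capitals.
Lrrc32 site for miR-214-3p: agtcacagagCCTGCTGcatcagatcc
Lrrc32 upstream site for miR-214-5p: tcctgctttgGACAGGCcttctctcca
Lrrc32 downstream site for miR-214-5p: ctccctctcaGACAGGCgcccacagac
None of the 3 was followed by the A that extends a match to 8 bases. Of 13105 tested genes with an annotated 3′ UTR, 24.4% held the 7-base site for miR-214-3p and 10.9% that for miR-214-5p. A match of letters is a description of the sequence and no evidence of binding.

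Total counts were between 21126874 and 29605988 per library. Mir214 itself had 0 counts in all 12 libraries, the WT ones included; an oligo(dT) library is not made to capture a microRNA hairpin, so the counts do not check the deletion. The libraries carried the T cell label in their transcripts: the summed level of 10 T cell markers (Cd3d, Cd3e, Cd3g, Cd247, Cd2, Cd5, Lck, Thy1, Cd28 and Cd6) was 2639 to 4711 CPM (read counts scaled to a common library size). They also held transcripts of other cells, and these moved with Ang II in WT. The summed level of 10 red-cell precursor markers in WT was 136 to 187 CPM in sham and 1007 to 1526 CPM after Ang II. That of 8 neutrophil markers was 186 to 231 CPM in WT sham and 1029 to 3147 CPM after Ang II. Genes of dividing cells, which do not tell T cells from other cells, also moved. The summed level of 8 such genes was 236 to 288 CPM in WT sham and 1147 to 1313 CPM after Ang II. In miR-214-/- mice the ranges for red-cell precursors were wider in sham, at 134 to 428 CPM, and overlapped those after Ang II, at 226 to 746 CPM. Beside the WT response of the regulatory T cell genes, therefore, the makeup of the libraries differed as well. Between genotypes the red-cell precursor markers had a median log2 difference of 1.51 in sham and -1.31 after Ang II. Of these markers, 0 of 10 passed an adjusted p under 0.05 (edgeR) in either. At an unadjusted p under 0.05 there were 7 of 10 in sham and 4 of 10 after Ang II, beside 6.67% and 8.56% of all genes. In bulk RNA fewer cells of a type and less RNA per cell cannot be told apart.

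The 10 genes lie on 6 autosomes and the X chromosome in GRCm38: Ctla4 at chr1:60887000-60915832, Ikzf2 at chr1:69531214-69687245 (minus strand), Il2ra at chr2:11642807-11693193, Tnfrsf9 at chr4:150914562-150946102, Tnfrsf4 and Tnfrsf18 as neighbours at chr4:156013843-156016612 and chr4:156026164-156028895, Lrrc32 at chr7:98489283-98502181, Nrp1 at chr8:128358604-128503363, Itgae at chr11:73090583-73147446 and Foxp3 at chrX:7573644-7595245, all but Ikzf2 on the plus strand. All 10 were well measured, with 265 to 4351 counts in every library, and all passed the filter on low counts in every comparison. Compared per kilobase of exon, Ctla4 and Tnfrsf18 stood highest, with mean levels over 12 libraries of 29.3 ± 7.04 and 28.9 ± 2.81 CPM per kb (SD). Tnfrsf4 followed at 18.2 ± 2.87, Foxp3 at 16.9 ± 2.23, Itgae at 15.9 ± 2.68 and Ikzf2 at 11.8 ± 1.75 CPM per kb. Il2ra stood at 7.53 ± 0.955 and Tnfrsf9 at 7.18 ± 0.880 CPM per kb. Nrp1 (4.04 ± 0.725) and Lrrc32 (3.59 ± 0.582 CPM per kb) were lowest. Along this order the ranges over libraries overlapped between every gene and the next, except that the lowest library for Tnfrsf18 (23.5 CPM per kb) was above the highest for Tnfrsf4 (22.8).

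**Figure D1:**
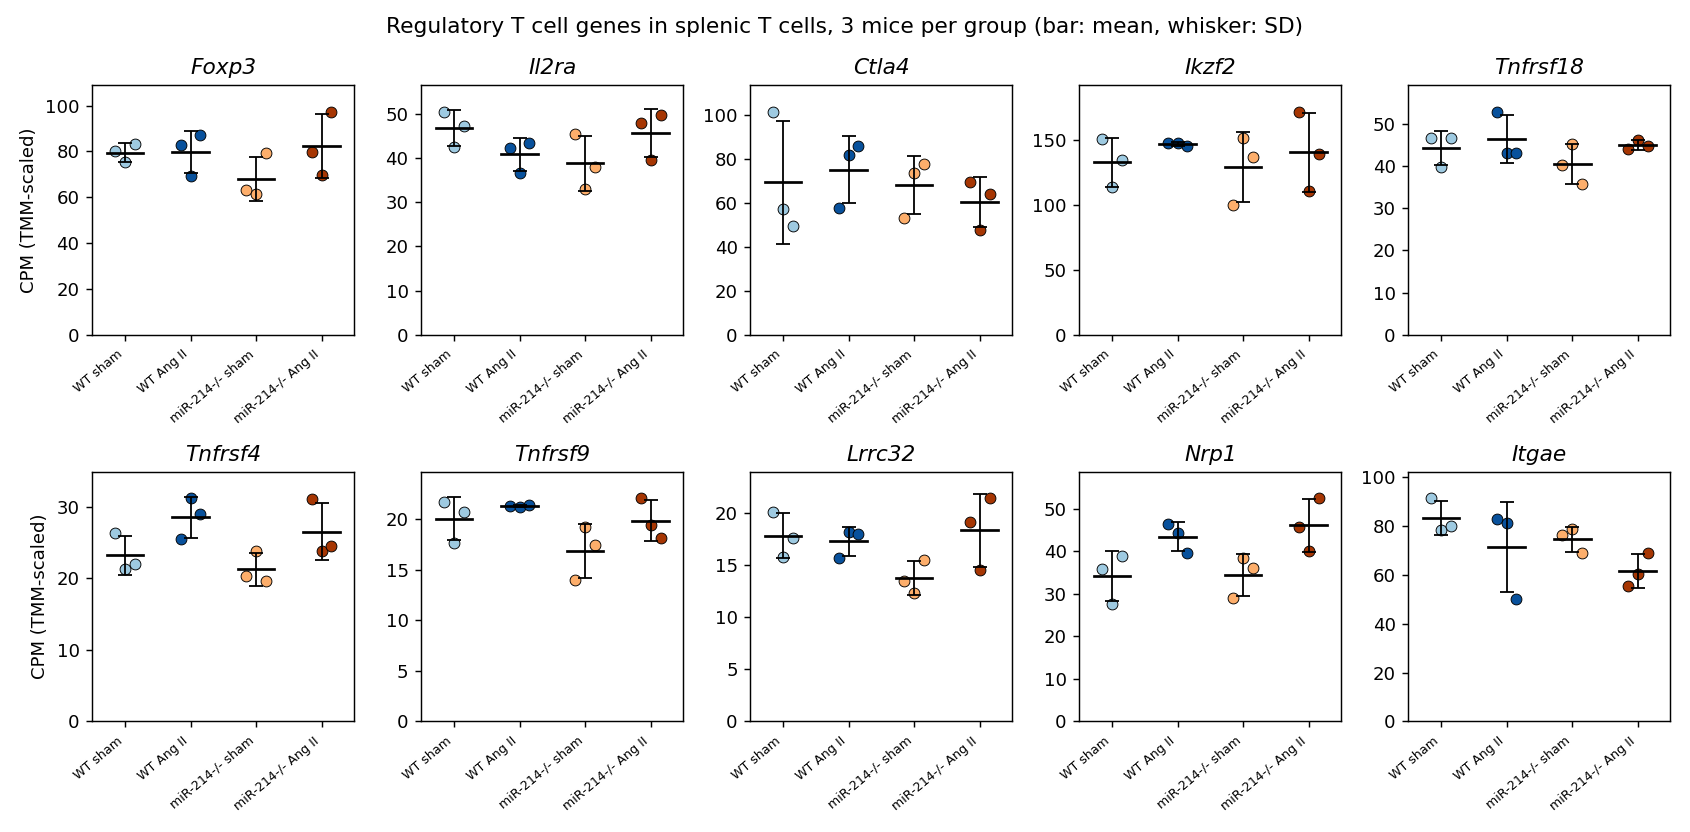
Level of each of the 10 regulatory T cell genes (vertical axes: CPM after TMM scaling, from 0) in the 3 libraries of each group (points), with the group mean (bar) and SD (whiskers). Points of the groups overlap in most panels, while for Nrp1 the Ang II libraries lie above the sham libraries in both genotypes (WT 27.7 to 38.9 CPM in sham and 39.6 to 46.4 CPM after Ang II).

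The response of WT mice to Ang II was examined first. None of the 10 regulatory T cell genes passed the test (edgeR's quasi-likelihood test, adjusted p under 0.05), whereas 18.8% of all 16012 genes tested did. At an unadjusted p under 0.05 there were 2 of 10, Nrp1 and Tnfrsf4, beside 35.6% of all genes. The groups did not overlap for 1 of 10, Nrp1, beside 41.1% of all genes. The median log2 fold change of the 10 genes was 0.10, beside -0.02 for all genes. DESeq2 called 0 of 10 as well.

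Foxp3, the lineage factor, did not pass the test. Its level was 80.1, 75.3 and 83.2 CPM in WT sham and 83.0, 69.4 and 87.0 CPM in WT Ang II. The WT groups overlapped, with the lowest and the highest of the 6 libraries both in the Ang II group. The log2 fold change was 0.03 ± 0.10 (SE; adjusted p = 0.862, edgeR), with a 95% interval of -0.21 to 0.27. For Ikzf2 the WT sham libraries gave 151, 113 and 134 CPM and the WT Ang II libraries 148, 148 and 145 CPM. All Ang II values lay inside the sham range (log2 fold change 0.16 ± 0.10, adjusted p = 0.298).

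Il2ra, the receptor subunit for interleukin-2, was 50.4, 42.5 and 47.3 CPM in WT sham and 42.3, 36.5 and 43.5 CPM in WT Ang II. Of the 3 Ang II libraries 2 were below all sham libraries, and the log2 fold change of -0.17 ± 0.11 did not pass the test (adjusted p = 0.291). Ctla4 had the widest 95% interval of the 10 in WT, from -0.54 to 0.81 (log2 fold change). In WT sham it was 101 CPM in replicate 1 but 56.9 and 49.4 CPM in the other libraries, and in WT Ang II it was 57.6, 81.5 and 85.8 CPM. Replicate 1 of WT sham was also the WT sham library with the highest summed level of 6 B cell markers, 322 CPM beside 62.2 and 100.1 CPM. Over all 12 libraries that level was highest in replicate 2 of miR-214-/- Ang II, at 410 CPM. Ctla4 was lowest there, at 47.8 CPM. The part of B cells in the Ctla4 values was not tested. The log2 fold change of Ctla4 was 0.13 ± 0.29 (adjusted p = 0.766), and without replicate 1 of WT sham it was 0.51 and still not past the test.

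Among the TNF receptors, Tnfrsf4 was 26.4, 21.4 and 22.0 CPM in WT sham and 25.5, 31.1 and 29.0 CPM in WT Ang II. Only the highest sham library reached into the Ang II range (log2 fold change 0.32 ± 0.13, adjusted p = 0.119). Tnfrsf18 (log2 fold change 0.09 ± 0.12, adjusted p = 0.620) and Tnfrsf9 (0.11 ± 0.11, adjusted p = 0.517) overlapped between the groups. The Tnfrsf9 values in WT Ang II were close together, at 21.3, 21.3 and 21.4 CPM, and inside the sham range of 17.7 to 21.7 CPM.

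The surface and adhesion genes differed among themselves. Nrp1 was 35.8, 27.7 and 38.9 CPM in WT sham and 46.4, 44.4 and 39.6 CPM in WT Ang II. It was the only one of the 10 genes without overlap in WT, and its log2 fold change of 0.37 ± 0.14 was the largest of the 10, yet it did not pass after adjustment (adjusted p = 0.0983). Lrrc32 was 15.8 to 20.1 CPM in WT sham and 15.6 to 18.2 CPM in WT Ang II (log2 fold change -0.02 ± 0.13, adjusted p = 0.914). Itgae was 91.4, 78.3 and 80.2 CPM in WT sham and 82.9, 81.4 and 50.1 CPM in WT Ang II. Replicate 3 of WT Ang II was the low library for Itgae, and the log2 fold change was -0.20 ± 0.18 (adjusted p = 0.468) with it and -0.0046 without it.

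**Figure D2:**
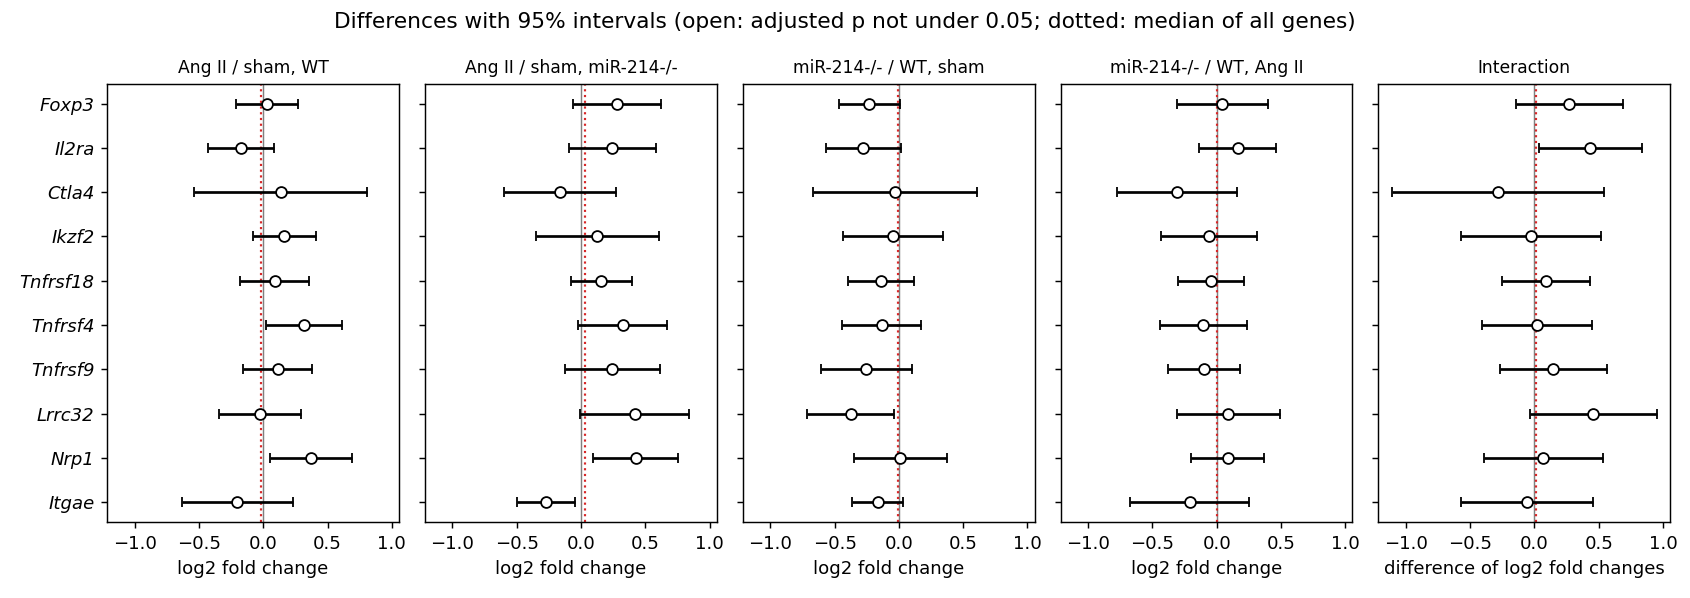
Log2 fold change of each gene (points) with its 95% interval (lines) in the 4 comparisons and, at the right, the interaction of Ang II and genotype; the dotted line is the median of all genes tested. All points are open because no gene had an adjusted p under 0.05, and the intervals that exclude 0 are those of Nrp1 and Tnfrsf4 (WT Ang II), Nrp1 and Itgae (miR-214-/- Ang II), Lrrc32 (genotype in sham) and Il2ra (interaction).

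The T cell markers of the same libraries did not hold their level. Of the 10 T cell markers, 8 fell in WT after Ang II (adjusted p under 0.05, edgeR) and 0 rose, beside 7.06% of all genes that fell, with a median log2 fold change of -0.50. Cd3e, a chain of the T cell receptor complex, fell by 0.48 ± 0.09 (log2, SE; adjusted p = 0.0137), and Cd4, the coreceptor that regulatory T cells carry, fell by 0.45 ± 0.08 (adjusted p = 0.0143). When any 1 of the 6 WT libraries was left out, between 2 and 9 T cell markers were called, with 2 when replicate 3 of WT Ang II was left out. Markers of some other cells were called higher in the same comparison, beside 11.7% of all genes. They were 8 of 8 for neutrophils, 9 of 10 for red-cell precursors and 5 of 5 for basophils and mast cells. For megakaryocytes and platelets 3 of 7 were called higher, for dendritic cells 2 of 8 and for plasma cells 1 of 3. For macrophages 0 of 9 were called, though all 9 log2 fold changes were positive (median 0.75). For B cells 0 of 6 were called. Of the genes of dividing cells, which may be T cells or other cells, 8 of 8 rose. The part of other cells and of dividing cells in the WT values of the regulatory T cell genes was not tested. A fit with the level of the red-cell precursor markers as a covariate was made for the interaction alone.

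The ratio of Foxp3 to the T cell markers within each library separated the WT groups, with the Ang II libraries on the higher side. The T cell markers fell in WT (median log2 fold change -0.50) while Foxp3 was at 0.03, so the ratio rose through its denominator. There were 20.0, 17.5 and 17.7 Foxp3 counts per 1000 T cell marker counts in WT sham and 25.9, 22.4 and 33.0 in WT Ang II. The means were 18.4 ± 1.39 and 27.1 ± 5.37 (SD, n = 3 each), a ratio of 1.47. The 2-sided exact permutation test gave p = 0.1, the smallest that 3 against 3 libraries allow. Per 1000 Cd4 counts the ratio was 1.41, from 145 ± 1.52 to 205 ± 39.9 (SD; exact permutation p = 0.1). In miR-214-/- mice there were 14.9, 16.6 and 22.0 Foxp3 counts per 1000 T cell marker counts in sham and 25.7, 17.0 and 24.7 after Ang II, which overlapped (ratio 1.26, exact permutation p = 0.2). The genotypes overlapped in sham (ratio of miR-214-/- to WT 0.97, exact permutation p = 0.8) and after Ang II (0.828, exact permutation p = 0.4).

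**Figure D3:**
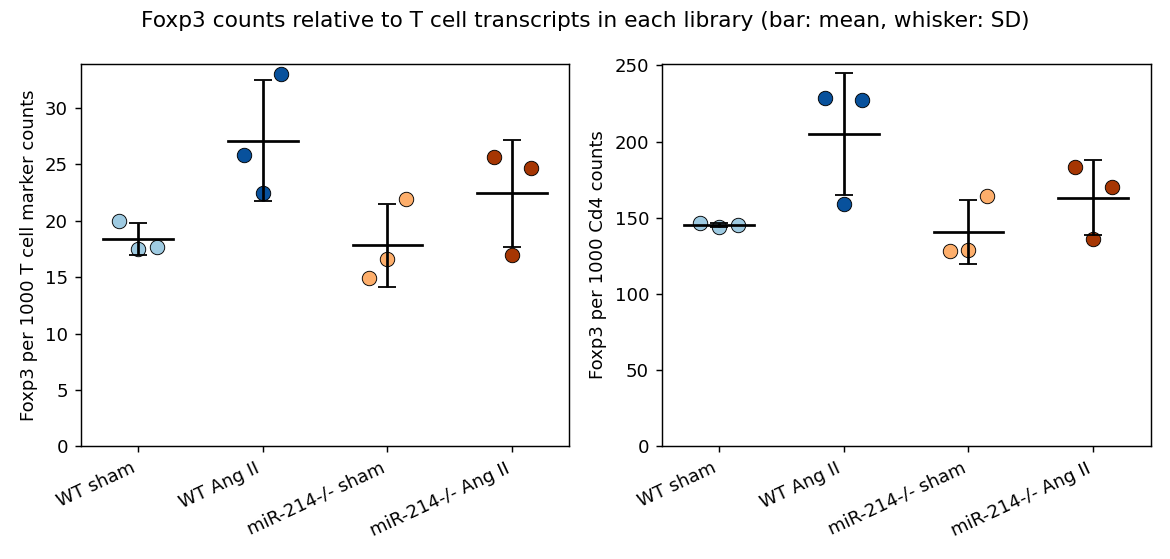
Foxp3 counts per 1000 counts of the 10 T cell markers (left) and per 1000 Cd4 counts (right) in each library (points) with the group mean (bar) and SD (whiskers), on axes from 0. WT Ang II libraries (22.4 to 33.0 on the left) lie above the WT sham libraries (17.5 to 20.0), and the miR-214-/- groups overlap. In WT the T cell markers and Cd4 fell after Ang II, while Foxp3 did not pass the test.

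Scaling all libraries by their T cell marker counts in place of TMM uses the same denominator, so it is no second line of support. Under that scaling 6 of the 10 genes were higher in WT after Ang II: Nrp1 (log2 fold change 0.89 ± 0.15 SE, adjusted p = 0.00279, edgeR), Tnfrsf4 (0.84 ± 0.19), Ikzf2 (0.68 ± 0.15), Tnfrsf9 (0.63 ± 0.18), Tnfrsf18 (0.60 ± 0.14) and Foxp3 (0.56 ± 0.15, adjusted p = 0.0156). However, 49.6% of all genes were called higher under it, and the median of all genes moved to 0.51. Relative to that median, Foxp3 differed by 0.05 and the median of the 10 genes by 0.11 on the log2 scale, beside 0.12 under TMM. On either scaling the 10 genes lay near the median of all genes, while the 10 T cell markers lay below it under TMM.

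Other genes used in regulatory T cells were measured as a list of 30. In WT, 5 rose after Ang II, beside 11.7% of all genes, and 2 fell, beside 7.06% of all genes. Neither count was far from the share over all genes, and the list median was 0.39. Il1rl1, the interleukin-33 receptor that mast cells and basophils also carry, rose by a log2 fold change of 1.65 ± 0.28 (SE; adjusted p = 0.0115, edgeR). Plagl1 rose by 1.05 (adjusted p = 0.0339), Fgl2, a secreted suppressive protein also made by macrophages, by 0.86 (adjusted p = 0.0235), and the inhibitory receptors Tigit and Lag3 by 0.63 and 0.59 (adjusted p = 0.0208 and 0.0413). The genes that fell were Izumo1r, the folate receptor family member found on regulatory T cells (fell by 0.31, adjusted p = 0.0276), and Gata3, a transcription factor of T helper cells (fell by 0.44, adjusted p = 0.0312). When 1 library was left out, between 1 and 5 genes of this list rose, with 1 when replicate 1 of WT sham was left out, 5 when replicate 1 of WT Ang II was and 2 for each of the other 4 libraries, and at most 1 fell. In the same libraries the summed level of 5 basophil and mast cell markers was 40.1 to 71.5 CPM in sham and 168 to 400 CPM after Ang II, whose part in the rise of Il1rl1 was not tested.

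Genes that are low or held down in regulatory T cells, and high in naive T cells, behaved unlike the 10 genes. Of 8 such genes, 7 fell in WT after Ang II and 0 rose, beside the 7.06% of all genes that fell and the 11.7% that rose, with a list median of -0.64. They were Dapl1 (fell by 0.89), Pde3b (log2 fold change -0.88), Lef1, Satb1 and Bach2 (log2 fold changes -0.66, -0.65 and -0.62), Il7r (-0.52) and Tcf7 (-0.50). The exception, Il2, had 94 counts over all 12 libraries. Satb1, a chromatin organiser that Foxp3 represses, had the smallest adjusted p of these (0.00264, edgeR). Without replicate 3 of WT Ang II, 3 of the 8 were called. The T cell markers of the same libraries fell too, as given above, and their part in these values was not tested.

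The interleukin-2 pathway, the regulators of Foxp3 and the ligands and partners of the 10 genes were measured for context, and their counts stand beside the 11.7% of all genes that rose and the 7.06% that fell. Of 12 interleukin-2 pathway genes, 0 rose and 3 fell in WT after Ang II: Jak1 (log2 fold change -0.41), Il2rg, the shared γ chain (-0.37), and Stat5b (-0.27), while Stat5a was at 0.11 (adjusted p = 0.289, edgeR). Of 18 regulators of Foxp3, 4 fell and 1 rose. Bcl11b (-0.68), Ets1 (-0.53), Foxo1 (-0.48) and Smad3 (-0.36) fell, and the DNA methyltransferase Dnmt1, which dividing cells use, rose by 0.43. Of 14 tested ligands and partners of the 10 genes, 2 rose (Vegfa, a ligand of Nrp1, and Plxna1, its semaphorin co-receptor, log2 fold changes 1.26 and 0.80) and 2 fell (Traf1 and Traf2, adaptors of the TNF receptors, -0.34 and -0.22), of which the rises were near the share over all genes. With a library left out the calls of these 3 lists varied. The interleukin-2 pathway had 0 to 3 that fell and 0 to 1 that rose (1 without replicate 2 of WT Ang II). The regulators had 2 to 4 that fell (2 without replicate 2 of WT sham or replicate 3 of WT Ang II). Of the regulators 1 rose without replicate 3 of WT sham or replicate 1 of WT Ang II, and 0 without any other. The ligands and partners had 0 to 2 in each direction (0 in both without replicate 1 of WT sham or replicate 3 of WT Ang II). Without replicate 2 or 3 of WT sham, or replicate 2 or 3 of WT Ang II, 0 interleukin-2 pathway genes fell.

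**Figure D4:**
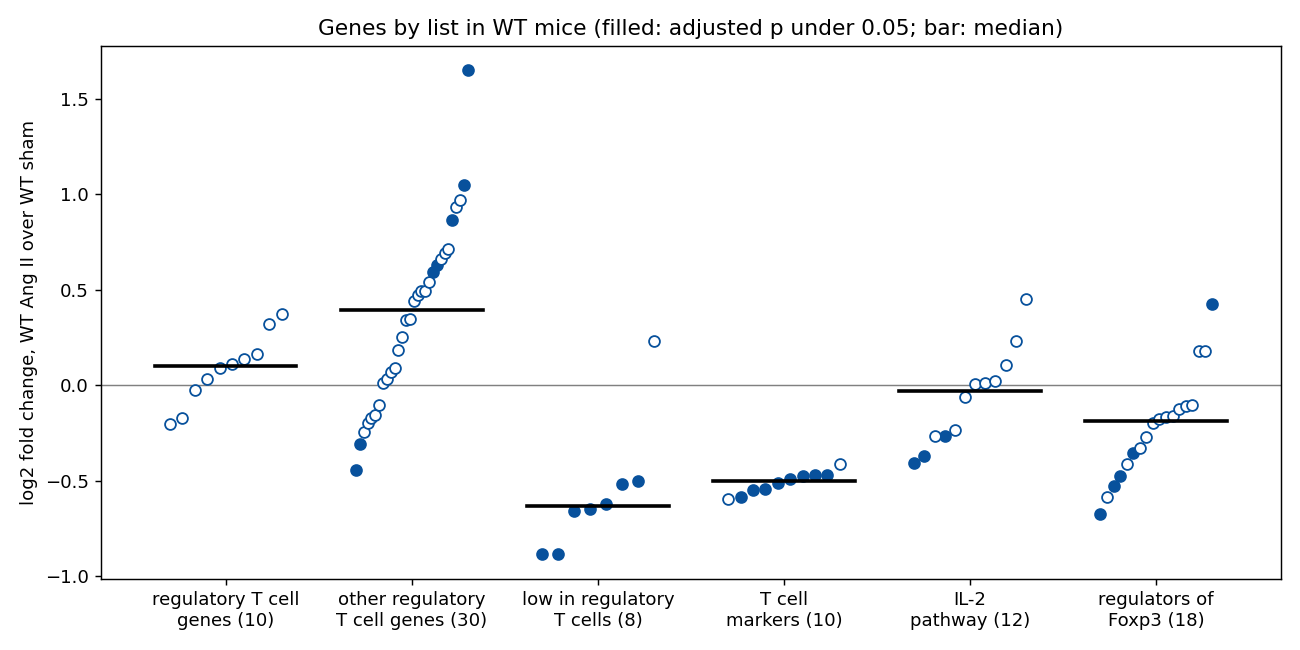
Log2 fold change of WT Ang II over WT sham for each tested gene of 6 lists (points; filled where adjusted p was under 0.05), with the list median (bar). The 10 regulatory T cell genes (median 0.10, 0 filled) lie above the T cell markers (median -0.50, 8 filled) and the genes low in regulatory T cells (median -0.64, 7 filled).

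In miR-214-/- mice, none of the 10 genes passed the test after Ang II (edgeR), and 0% of all 15937 genes did. That share depended on the method, as DESeq2 called 277 of 13035 genes, though 0 of the 10. With edgeR, 2 of 10 had an unadjusted p under 0.05, Nrp1 and Itgae, beside 12.2% of all genes. The groups did not overlap for 2 of 10, Nrp1 and Tnfrsf4, beside 19.3% of all genes. The median of the 10 was 0.24, beside 0.03 for all genes. Nrp1 was 29.0, 38.3 and 36.1 CPM in miR-214-/- sham and 45.7, 40.1 and 52.4 CPM after Ang II. All Ang II libraries were above all sham libraries, as in WT, with a log2 fold change of 0.42 ± 0.14 (SE; adjusted p = 0.330, edgeR). Tnfrsf4 was 20.3, 23.8 and 19.6 CPM in sham and 31.0, 23.8 and 24.5 CPM after Ang II, where the highest sham library lay just under the lowest Ang II library (log2 fold change 0.32 ± 0.15, adjusted p = 0.431).

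Foxp3 was 63.4, 61.4 and 79.2 CPM in miR-214-/- sham and 79.8, 69.8 and 97.4 CPM in miR-214-/- Ang II. The groups overlapped through the highest sham library, and the log2 fold change was 0.28 ± 0.15 (SE), with a 95% interval of -0.07 to 0.63 (adjusted p = 0.474, edgeR). Lrrc32 was 13.5, 12.3 and 15.5 CPM in sham and 19.1, 14.5 and 21.4 CPM after Ang II, which also overlapped in 1 library (log2 fold change 0.42 ± 0.18, adjusted p = 0.412). Itgae had the lowest log2 fold change of the 10, -0.27 ± 0.10 (adjusted p = 0.358), with 76.4, 78.7 and 68.9 CPM in sham and 55.3, 60.5 and 69.1 CPM after Ang II. Il2ra, Tnfrsf9, Tnfrsf18 and Ikzf2 had log2 fold changes of 0.24, 0.24, 0.16 and 0.13, and Ctla4 was at -0.16, with adjusted p-values between 0.523 and 0.822. None of the T cell markers passed the test in this genotype, with a median of -0.02, and none of the genes in the other lists did.

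Without Ang II, the genotypes were compared in sham. This comparison shares its WT sham libraries with the WT response and its miR-214-/- sham libraries with the response above, so the values are not independent of those. None of the 10 genes passed the test (edgeR), beside 0.0251% of all genes, and 1 of 10 had an unadjusted p under 0.05, beside 6.67% of all genes. That gene was Lrrc32, at 20.1, 15.8 and 17.6 CPM in WT sham and 13.5, 12.3 and 15.5 CPM in miR-214-/- sham. All miR-214-/- libraries were below all WT libraries, with a log2 fold change of -0.38 ± 0.15 (SE; adjusted p = 0.701). It was the only gene of the 10 without overlap, beside 10.2% of all genes. Lrrc32 is also the gene with the seed matches shown above, whose part in its values was not tested. Of the 10 values, 9 were negative, with a median of -0.15 beside -0.01 for all genes. Foxp3 was at -0.23 ± 0.10 (adjusted p = 0.768) and Il2ra at -0.28 ± 0.13 (adjusted p = 0.772). Nrp1 was at 0.01 ± 0.16. For Ctla4 the value of -0.03 ± 0.27 became 0.36 without replicate 1 of WT sham. The T cell markers had a median of -0.14 in this comparison with 0 of 10 called, and the red-cell precursor markers one of 1.51 with 0 of 10 called. At an unadjusted p under 0.05 (edgeR) there were 3 of 10 T cell markers and 7 of 10 red-cell precursor markers. Of the genes of dividing cells there were 8 of 8, with a median of 0.84. The part of this difference in makeup in the values of the 10 genes was not tested.

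After Ang II, none of the 10 genes passed the test between genotypes (edgeR), beside 0% of all 16215 genes, and 0 of 10 had an unadjusted p under 0.05, beside 8.56% of all genes. The groups overlapped for all 10, beside 14% of all genes without overlap. The median of the 10 was -0.05. Foxp3 differed by 0.04 ± 0.15 (log2, SE), with a 95% interval of -0.31 to 0.40, and the values furthest from 0 were those of Ctla4 (-0.31 ± 0.20, adjusted p = 0.600) and Itgae (-0.21 ± 0.19, adjusted p = 0.685). Foxp3 differences inside that interval were not excluded with 3 mice per group.

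The interaction asks whether the response to Ang II differed between genotypes. None of the 10 genes passed (edgeR), beside 0.00596% of all genes. DESeq2 called 444 of 13771 genes, though 0 of the 10. With edgeR, 1 of 10 had an unadjusted p under 0.05, beside 14.8% of all genes. That gene was Il2ra, which had a negative value in WT (-0.17) and a positive one in miR-214-/- mice (0.24), a difference of 0.44 ± 0.18 on the log2 scale (SE; adjusted p = 0.309). Its levels were 45.3, 33.0 and 37.9 CPM in miR-214-/- sham and 47.9, 39.5 and 49.6 CPM after Ang II, with overlap in both genotypes. Lrrc32 had a difference of 0.46 ± 0.23 (adjusted p = 0.368) and Foxp3 one of 0.27 ± 0.19 (adjusted p = 0.507), with a 95% interval of -0.15 to 0.69. For Nrp1, whose Ang II libraries were above its sham libraries in each genotype, the difference was 0.07 ± 0.21 (adjusted p = 0.895). With the mean log2 CPM of the red-cell precursor markers as a covariate, 0 of 10 genes and 0 of all genes were called, and the difference was 0.06 for Il2ra, 0.07 for Foxp3 and 0.37 for Ikzf2, which had been at -0.02. Without the covariate the median of the 10 was 0.08, beside 0.52 for the T cell markers, of which 0 of 10 were called.

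The 10 genes did not move as a block across libraries. Over 12 libraries, which share a protocol but belong to 4 groups, the correlation with Foxp3 of log2 CPM (Pearson's r, given as a description) was highest for Lrrc32 (0.79), Il2ra (0.64) and Nrp1 (0.51), low for Ctla4 (0.14), Tnfrsf18 (0.18) and Tnfrsf4 (0.19), and negative for Itgae (-0.25). Among 12280 other genes with a mean log2 CPM above 1, the 5 whose pattern was most like that of Foxp3 were Bmp7 (r = 0.83), Gm29585 (0.80), Ccr4 (0.79), Abi2 (0.79) and Bclaf3 (0.77). Ccr4, a chemokine receptor, is also on the list of other regulatory T cell genes. These 5 are the highest of 12280 values over 12 libraries, and the level to be had by chance was not worked out.

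The annotation sets limits on some of these counts. Foxp3 has 4577 exonic bases, of which 853 are shared with the noncoding gene Flicr on the same strand and 590, 373 and 266 with Ccdc22, Gm36995 and Ppp1r3f on the opposite strand. Of Tnfrsf18, 414 of 1524 exonic bases are shared with Gm16008 on the opposite strand. For these genes the counts are uncertain to the extent that shared reads were dropped or reassigned, as the strand setting of the counting is not given in the sources used here. The counts of Flicr were 65 to 115 per library and those of Gm16008 22 to 46, beside 1322 to 2363 for Foxp3 and 971 to 1506 for Tnfrsf18.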

How the data were processed

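RNASeq of splenic T cells was deposited as raw read counts per gene for 12 libraries, 3 per group. The authors trimmed reads, mapped them to GRCm38 with STAR and counted unique exonic reads with featureCounts of Subread 1.5.2, per the labels and methods. The deposited counts were not normalised. All 12 columns were used, grouped by their labels. Identifiers were matched to GENCODE vM21 (GRCm38; 48970 of 49315). In R 4.3.3, edgeR 4.0.16 was run on the groups compared, with filterByExpr, TMM scaling and the quasi-likelihood test (interaction: all 12 libraries with both factors), Benjamini-Hochberg adjustment over all genes tested and calls at an adjusted p under 0.05. The fit was checked on simulated counts. DESeq2 1.42.0 was an alternative, with other scalings, filters and left-out replicates. Levels are TMM-scaled CPM, and log2 CPM used a prior count of 2. Foxp3 ratios were compared by exact permutation. No 2 replicate libraries were identical (0 of 12 pairs). Named genes were the 10 genes, called members of the context lists and the 5 genes most correlated with Foxp3. The genes and lists were chosen with earlier results of these data known. Figures used matplotlib 3.10.9 in Python 3.11.15.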

Additional observations from a re-analysis of the deposited data

How the results depend on the processing

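In 84 of 85 alternative fits (DESeq2, other scalings, filters, dispersion fits, a fold threshold, a common fit, a replicate block, a red-cell covariate for the interaction and each replicate left out), 0 of the 10 regulatory T cell genes were called. The exception was scaling by T cell marker counts in WT, where 6 of 10 were called after Ang II. By construction this scaling raises every gene where T cell markers fell. Of 810 values of single genes under alternatives, 783 kept their side of the threshold and their direction or stayed within 1 SE, and 24 of the 27 others belonged to that scaling. All genes called in WT numbered 3009 in the main edgeR fit, 3711 by DESeq2 and 7949 under that scaling. With a replicate left out they numbered 946 to 3590. In miR-214-/- mice after Ang II, 0 genes were called by edgeR and 277 by DESeq2. For the interaction 1 gene was called by edgeR and 444 by DESeq2. Without replicate 1 of miR-214-/- Ang II, edgeR called 919 for the interaction. A fold threshold can only remove calls, so its counts of 0 were fixed in advance. After Ang II in miR-214-/- mice the other edgeR alternatives called at most 5 of all genes. Between genotypes they called at most 35 in sham and 1 after Ang II. In these comparisons 0 of 10 therefore says little about stability. The ratio of Foxp3 to T cell marker counts in WT ranged from 1.31 (without replicate 3 of WT Ang II) to 1.60 (without replicate 2 of WT Ang II) with a replicate left out, and in miR-214-/- from 1.16 to 1.42. The replicate numbers are not stated to mark a shared litter, batch or day, and same-numbered libraries deviated together by correlations of -0.56 to 0.20, so the numbers were not taken to pair the mice; with the replicate block 0 of 10 genes were called in every comparison. The counts of the context lists under alternatives were examined after seeing the data. With 3 mice per group, 95% intervals of the 10 genes spanned about -0.54 to 0.81 for Ctla4 and -0.21 to 0.27 for Foxp3 in WT. Changes inside these intervals were not excluded.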
